A study of Drosophila melanogaster with 2 samples.

Results

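Of 1686 CG42726-eGFP regions at promoters of fly autosomes, 514 (30.5%) lay at a pair of protein-coding genes read in opposite directions. They are 514 of 2752 regions in the whole list and of 2322 on autosomes. The list holds regions that passed a limit on the irreproducible discovery rate (IDR), a measure of how well the ranks of a region match between replicates. A region was taken when its summit lay within 500 bp of annotated starts of at least 2 protein-coding genes on opposite strands, with the minus-strand start to the left of the plus-strand start. Transcription of such a pair runs outward, and the DNA between the starts serves as upstream sequence for both genes. The 514 regions cover 493 gene pairs and 985 genes.

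The regions come from ChIP-seq, in which DNA bound by a protein is pulled down and sequenced, of 1 group of 2 biological replicates. Both are whole embryos of Drosophila melanogaster, 0 to 24 hours old, of the transgenic strain CG42726-GFP. Its insertion makes a CG42726-eGFP fusion, in which eGFP is a fluorescent tag, and the tag was pulled down with an antibody to GFP according to the sample descriptions, while the antibody field of the labels reads CG42726. Stages and cell types are mixed in such material. The signal of a region is the authors' own value for its height, with no stated unit, and read depth is unknown. No control immunoprecipitation was analysed, so the signal at these promoters without the tag is unknown. Coordinates are on dm6. With a single group, and regions that are not replicates of a condition, no test between classes of regions was run. The 95% intervals (exact, Clopper-Pearson) run over regions, pairs or genes and cover counting error only.

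The fly genome is compact, and many genes with basic cellular functions lie head to head with a short gap between their starts. Core promoters of such genes often carry the DNA replication-related element (DRE, TATCGATA), which the factor Dref binds. The letters CGATA inside it are also the core of the sites of the boundary element factor BEAF-32, which is known for binding between close divergent genes. DNA just upstream of active starts is usually depleted of nucleosomes.

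Of the sequences counted, only CGATA was near the summit in most divergent promoters. For 5 of the strongest on arms 2L, 3L and 3R, with gaps of 60 to 250 bp, the bases between the starts are printed. They come from the RefSeq assembly of the same build and are written on the plus strand, 5′ to 3′, so that the minus-strand gene begins just left of the first base and the plus-strand gene just right of the last. Capitals mark CGATA and its reverse complement. No annotated gene of any kind covers these bases.
Fibp/Deaf1, chr3L:19817968-19818173: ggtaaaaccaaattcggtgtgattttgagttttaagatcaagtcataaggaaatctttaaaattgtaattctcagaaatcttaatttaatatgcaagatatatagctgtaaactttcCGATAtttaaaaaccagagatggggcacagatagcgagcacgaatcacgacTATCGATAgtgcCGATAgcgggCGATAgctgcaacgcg
S/ast, chr2L:1077816-1077947: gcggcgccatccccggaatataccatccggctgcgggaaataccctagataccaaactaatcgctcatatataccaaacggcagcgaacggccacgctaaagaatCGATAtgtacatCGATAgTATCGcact
PRL-1/EndoGI, chr2L:16257607-16257687: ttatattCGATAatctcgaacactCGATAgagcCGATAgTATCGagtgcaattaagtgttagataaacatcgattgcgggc
Rab30/Caper, chr2L:7032607-7032720: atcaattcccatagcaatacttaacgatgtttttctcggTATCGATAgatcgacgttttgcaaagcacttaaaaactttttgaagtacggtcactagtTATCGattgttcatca
eIF3a/CG1074, chr3R:4433896-4433964: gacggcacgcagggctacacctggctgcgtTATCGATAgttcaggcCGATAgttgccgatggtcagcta

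The 5 stretches held between 3 and 5 matches to CGATA, counted on both strands, so that a full DRE counts as 2. The full DRE was present between Fibp and Deaf1 (a transcription factor), between Rab30 (a small GTPase of membrane traffic) and Caper (an RNA-binding splicing factor), and between eIF3a (an initiation factor subunit) and CG1074. Between S, which acts in the export of ligands of the epidermal growth factor receptor, and ast, 3 single matches clustered at the ast side. PRL-1, a phosphatase gene, and EndoGI, which encodes an inhibitor of endonuclease G, had 4 matches within 81 bp. The summit lay at base 173 of 206 in the first stretch, 78 of 132 in the second, 28 of 81 in the third, 68 of 114 in the fourth and 48 of 69 in the fifth. Signals were 476.5, 439.6, 397, 386.9 and 374.5 in that order. Other pairs in this range of gap and signal are not shown, and they include Sps1 and conv, with a signal of 396.4 and 1 match within 50 bp of the summit.

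Candidate regions at divergent promoters passed the IDR limit more often than those elsewhere. Of the 110867 autosomal regions in the ranked list between the replicates, 2322 are in the thresholded list, which is 2.09%. Of the 2062 ranked regions with divergent coding starts, 514 passed (24.9%, 95% interval 23.1 to 26.9). At single-gene promoters 1139 of 13940 passed (8.17%, 7.72 to 8.64), and where no coding start lay within 500 bp 636 of 94390 did (0.674%). Promoters with several genes of which none diverge passed in 33 of 475 cases (6.95%, 4.83 to 9.62). The interval for divergent promoters lay above those of the other 3 classes. Gene expression was not measured, and its part in these shares was not tested.

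The annotation gives the same order from the side of the genes. Of 11749 autosomal protein-coding genes, 2085 had a summit within 500 bp of a start, 17.7%. Of the 4269 genes in an annotated divergent pair with a gap of up to 1000 bp, 29.0% had one (95% interval 27.7 to 30.4), against 11.3% of the 7480 genes in no such pair (10.60 to 12.05). A summit in a short gap counts for both genes of the pair, which raises the first share. Counted per pair, 748 of 2264 pairs (33.0%) had a summit within 500 bp of either start and 525 (23.2%) had one within 500 bp of both. The share with a summit near either start changed little with the gap: 33.8% of 361 pairs up to 100 bp apart, 28.7% of 310 pairs over 100 and up to 200 bp, 31.6% of 807 over 200 and up to 400 bp, and 35.9% of 786 over 400 bp. The intervals of these 4 classes overlapped. The span within 500 bp of either start widens with the gap, so these shares do not refer to spans of like length. The share with a summit near both starts was 11.96% in the widest class, where the span within 500 bp of both starts narrows as the gap widens.

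**Figure D1:**
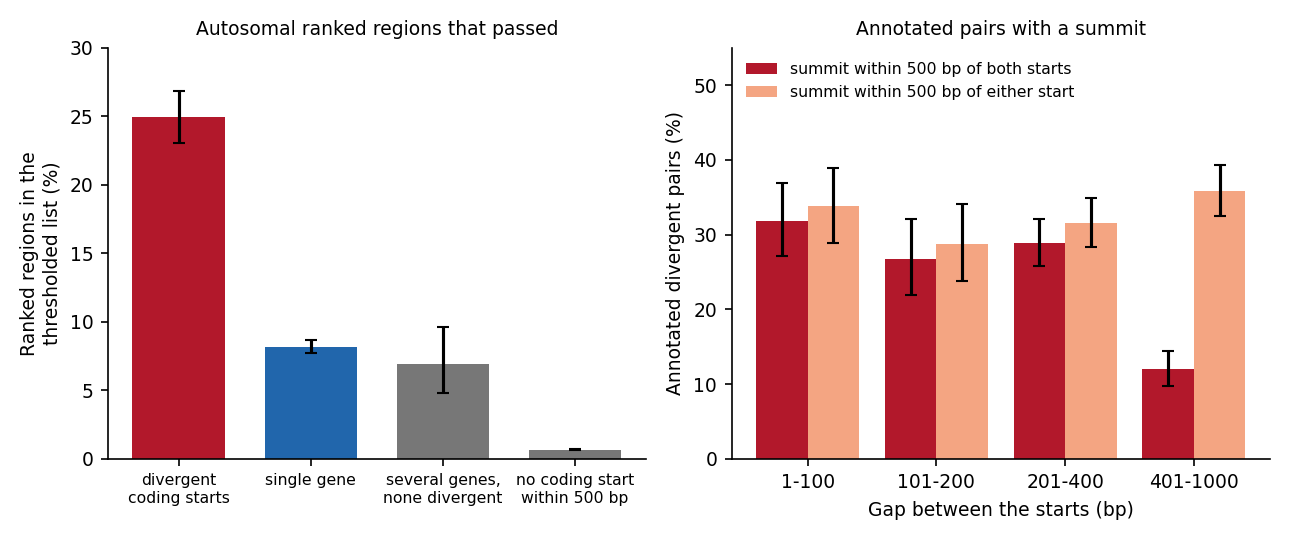
Left, the percentage of autosomal ranked regions that are in the thresholded list, by the starts near their summit. Right, the percentage of annotated divergent pairs with a summit near both starts or near either, by gap in bp. Bars are shares and lines exact 95% intervals. Divergent promoters stand at 24.9% and single-gene promoters at 8.17%, while the share of pairs with a summit near either start stays between 28.7% and 35.9%.

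The gap between the starts had a median of 260 bp, with quartiles of 117 and 362 bp and a range of 10 to 924 bp. It was up to 100 bp in 108 regions, over 100 and up to 200 bp in 82, over 200 and up to 400 bp in 226, and above 400 bp in 98. The narrowest pair was CG1360 and scra, the gene of anillin, with 10 bp between their starts and a signal of 109.5. Cpes, which encodes a sphingolipid synthase, and CG5569 stood 16 bp apart with a signal of 241.8. The widest were CG30122 and CheA56a at 924 bp with a signal of 230.3, TM9SF3 and mthl2 at 811 bp with 140.3, and CG32243 and CG11357 at 807 bp with 119. Signals of narrow and wide pairs overlapped throughout, with class medians of 123, 121, 107 and 118 from the narrowest class to the widest.

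Where the gap was over 200 bp, summits lay nearer to a start than to the middle of the gap. In all, 362 of 514 summits (70.4%, 95% interval 66.3 to 74.3) lay between the starts, 75 lay to the left within the minus-strand gene's side and 77 to the right within the plus-strand gene's side. The distance to the nearer start had a median of 37 bp, with quartiles of 21 and 63 bp, and was at most 100 bp in 448 regions (87.2%). The nearer start was on the minus strand in 243 regions and on the plus strand in 270, with 1 tie. Where the gap was over 200 bp, 282 of 324 summits (87.0%) were within 100 bp of a start and 25 (7.72%) were within 50 bp of the midpoint. The median distance to the midpoint was 119.25 bp in gaps over 200 and up to 400 bp and 209.75 bp in wider ones, against 48.5 and 32 bp to the nearer start. In gaps up to 100 bp the midpoint was the closer, at a median of 17.25 bp against 24 bp to the nearer start, and likewise in gaps over 100 and up to 200 bp, at 38.75 bp against 47 bp.

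Even in wide gaps the nearer start was close. For summits between the starts the median distance to it was 23, 45, 50 and 36 bp over the 4 gap classes from narrowest to widest. The farther start was a median of 53, 114.5, 273.5 and 452 bp away in the same classes, over all regions. At single-gene promoters 641 of 1139 summits (56.3%, 53.3 to 59.2) lay upstream of or at the nearest start, and 76.9% were within 100 bp of it. There the nearest of all annotated starts was used. At divergent promoters distances were taken to the pair with the smallest gap, which need not include the nearest start. With the nearest pair instead, 74.51% of divergent summits lay between the starts, and the median distance to the nearer start was 35 bp. The shares of both classes are partly set by how regions were chosen. A summit deep inside a gene of a wide pair lies over 500 bp from the other start. It was counted with the single-gene promoters. The share between the starts was 82.77% with a 250 bp limit and 61.18% with a 1000 bp limit.

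**Figure D2:**
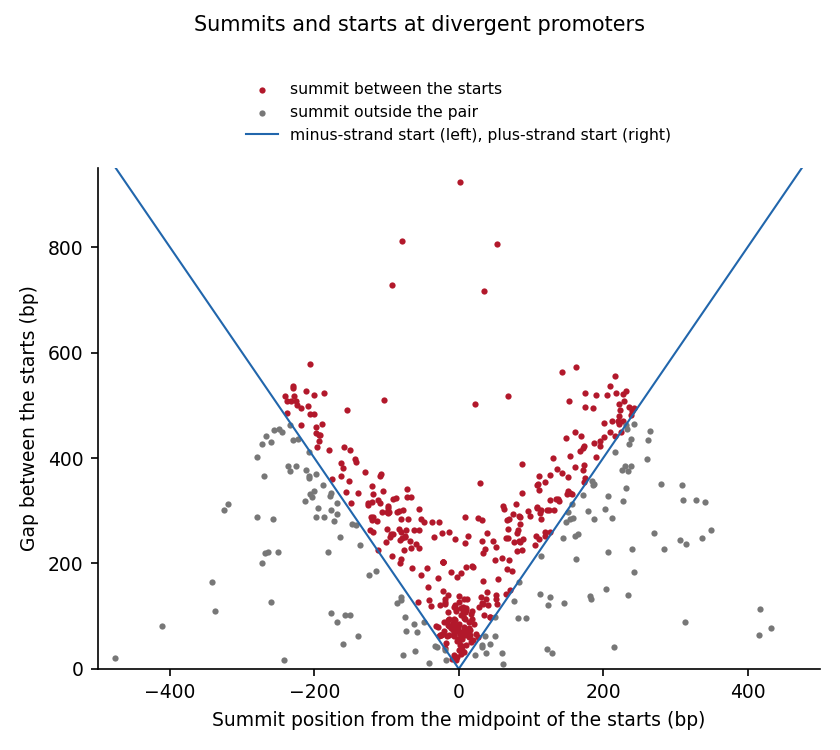
Each point is a divergent promoter region, with the summit's distance from the midpoint of the starts on the x axis (bp) and the gap on the y axis (bp). Blue lines are the starts. Above a gap of 200 bp most points lie along the lines, with 282 of 324 summits within 100 bp of a start, while in narrower gaps they gather around the middle.

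In some wide gaps each start had a region of its own. In all, 21 pairs held 2 regions. In 7 of these pairs the second region had a signal under 20, and each of these 7 overlapped its stronger neighbour, with summits 199 to 206 bp apart. The weakest was the second region at GluProRS and AP-1sigma, with a signal of 2.27 beside a neighbour of 195. The replicates' own regions that overlapped these 7 had their summits 110 to 220 bp away on the neighbour's side. In 13 of the other 14 pairs the left summit lay nearer to the minus-strand start and the right one nearer to the plus-strand start. In those 14 pairs the gap had a median of 435.5 bp and the summits stood 199 to 508 bp apart. The limit of 20 decides which pairs are counted here: DPCoAC and CG5180 (89.84 and 23.6, summits 205 bp apart) and mth and Ptpmeg (203.9 and 41.08, 199 bp apart) had the same spacing as the 7 set aside. At Pez and Cpr the gap was 165 bp and both summits lay outside the pair. Both also lay outside at Hs6st and MED25, mRpS17 and Nop60B, Swip-1 and EMC5, and Pgant5 and CG5828. Only the left or only the right summit lay outside at Nin and Bub1, Hsc70-5 and CG8531, Lasp and Dab, and MED8 and CG8929.

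The pair of HSPC300, a subunit of the actin-regulating WAVE complex, and CG3163 had a gap of 528 bp, with regions of signal 336.9 at 52 bp upstream of HSPC300 and 132.4 at 32 bp upstream of CG3163. At Tnks, the gene of tankyrase, and RASSF8 the gap was 509 bp and the summits lay 29 and 26 bp upstream of the starts, with signals of 80.61 and 103.7. Mpc1, which encodes a subunit of the mitochondrial pyruvate carrier, and CG42613 had summits 39 and 59 bp upstream of their starts with signals of 114.8 and 104.6. These 3 pairs show upstream summits at both ends of one gap.

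In 9 of the 10 strongest divergent promoters the summit lay between the starts. TAF1C-like and MESK2 had a region at chr2R:21501885-21502154 with a signal of 1426 (replicate 1 at 812.4, replicate 2 at 654.5), and its summit lay 72 bp upstream of MESK2. Rpn6, a subunit of the proteasome lid, and ave, which acts in epidermal growth factor receptor signalling, shared a region at chr2R:14752222-14752497 with a signal of 901.3 (replicate 1 at 552.8, replicate 2 at 338.4), 90 bp upstream of Rpn6 and 160 bp upstream of ave. Sec61alpha, the channel through which proteins enter the endoplasmic reticulum, and Daxx, a histone chaperone gene, shared one at chr2L:6480762-6481001 with 770.7 (469.2 and 319.8), 57 bp upstream of Daxx and 297 bp upstream of Sec61alpha. These 3 signals were 12.4, 7.83 and 6.69 times the median of the 514 regions.

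At RpL32, a ribosomal protein gene, and CG7943 the signal was 592.9 (replicate 1 at 372.1, replicate 2 at 210.5), 57 bp upstream of RpL32. The region at CG11779 and nanos, which encodes a translational repressor of the posterior embryo, had 516 (289.3 and 227.8) with its summit outside the pair, 140 bp to the CG11779 side. Prosalpha7, a subunit of the proteasome core, and CG1671 had 507.2 (343.2 and 166.9), 36 bp upstream of Prosalpha7. CG15356 and CG15362 had 499.5 (314.6 and 188.5). Fibp and Deaf1 had 476.5 (271.2 and 211.9), S and ast 439.6 (259.5 and 191.3), and CG11885 and CG13692 415.8 (300.5 and 122.3). All 10 were called in each replicate's own list, and replicate 1 was higher at each, though how the signal is scaled in each list is not stated.

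At the other extreme were summits far outside the pair. The farthest lay 466 bp inside CG4042, which faces the kinase gene Pitslre across 21 bp, with a signal of 67.77. The next lay 394 bp inside RpS16, which faces CG4294, with 95.41, and 384 bp inside ca, which faces the kinesin gene ncd, with 90.1. None of these 3 had CGATA within 50 bp of the summit. At the 500 bp limit of the choice, the farther start lay 499 bp away at Nin and Bub1 (signal 147.3), 499 bp at Ptp61F and CG9166 (232.5) and 498 bp at Mpc1 and CG42613 (114.8). Just outside it were CCT8 and CG30349 at 501 bp (68.99), and CCHa1-R and eIF3c (164.7) and alc and CG8788 (68.64) at 502 bp.

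Most divergent promoters were found in the replicates' own lists. Replicate 1's list overlapped 412 of the 514 (80.2%, 95% interval 76.4 to 83.5), beside 71.1% of all autosomal regions. Replicate 2's list overlapped 309 (60.1%, 55.7 to 64.4), beside 51.7% of all autosomal regions. At single-gene promoters the shares were 75.2% and 53.3%. In all, 286 divergent promoters were in both lists, 126 in that of replicate 1 only, 23 in that of replicate 2 only and 79 in neither. Those in both had a median signal of 161, those in replicate 1 only 91.4, those in replicate 2 only 86.7 and those in neither 71.7.

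In the ranked lists, which reach lower, 512 of the 514 had a region in replicate 1 and 513 in replicate 2. Signals ranged from 29.2 to 812 with a median of 71.3 in replicate 1, and from 25.3 to 655 with a median of 48.8 in replicate 2. Replicate 1 was higher at 431 of 511 regions, though how the signal is scaled in each list is not stated. Across these 511 regions, which are not independent replicates, the Spearman rho between the replicates was 0.694. Over 1126 single-gene promoters it was 0.596. Both sets had passed the IDR limit on these same replicates, which selects for matching ranks, so a positive rho was built in. A weak second region can also carry its neighbour's replicate values, as at GluProRS and AP-1sigma (96.12 and 96.38 for both). The summits of the replicates lay a median of 11 bp (replicate 1) and 15 bp (replicate 2) from that of the main list.

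**Figure D3:**
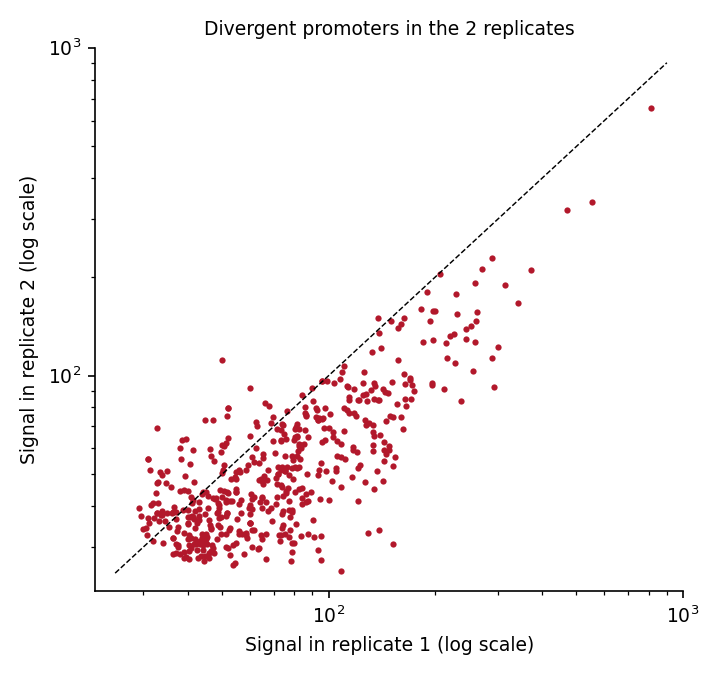
Each point is a divergent promoter region, with the authors' signal in replicate 1 on the x axis and in replicate 2 on the y axis, both on a log scale. The dashed line marks equal signals, and 431 of 511 points lie below it, where replicate 1 is higher.

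Among the sequences chosen for counting, CGATA was the only one that most divergent promoters held near the summit. Within 50 bp of it, on either strand, 345 of 514 regions held CGATA (67.1%, 95% interval 62.9 to 71.2). It was held by 487 of 1139 single-gene promoters (42.8%, 39.9 to 45.7) and by 80 of 636 regions with no coding start within 500 bp (12.6%). In windows of the same length centred 300 bp to the left and right of the same summits, 14.8% and 11.5% held it. Of all 11749 autosomal coding genes, 27.2% held it in a window of that length centred 50 bp upstream of the start. The share at divergent promoters was alike over the 4 gap classes, at 67.6%, 70.7%, 63.3% and 72.4% from the narrowest to the widest. A match describes letters only, and no factor's binding was measured besides the tagged protein's.

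The same contrast was present in each replicate's own list. In that of replicate 1, 68.0% of divergent promoters and 47.8% of single-gene promoters held CGATA. In that of replicate 2 the shares were 72.1% and 52.1%. The contrast was smaller among summits at a like position, measured from the described pair or from the nearest start of the single gene. Among summits 0 to 100 bp upstream of the nearer start, 266 of 339 divergent promoters (78.5%, 73.7 to 82.7) and 345 of 488 single-gene promoters (70.7%, 66.4 to 74.7) held CGATA, and these intervals overlapped. Divergent promoters with the summit outside the pair held it in 71 of 152 cases (46.7%), against 75.7% of those with the summit between the starts. Single-gene promoters with the summit downstream of the start held it in 20.1% of 498 cases.

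**Figure D4:**
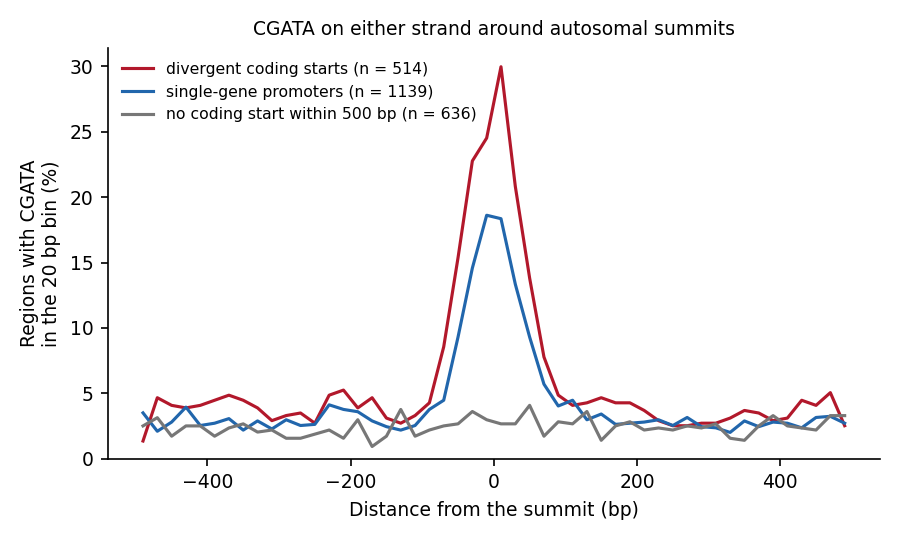
The percentage of autosomal regions with CGATA on either strand in each 20 bp bin (y axis), by distance from the summit in bp (x axis), for divergent promoters, single-gene promoters and regions with no coding start within 500 bp. In the bins on either side of the summit it averages 27.2% at divergent promoters, 18.5% at single-gene promoters and 2.83% at the others.

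Other sequences were rarer or showed smaller contrasts. Longer sequences match less often by their length alone, so shares of sequences of unlike length are not on a like scale. ATCGAT, the middle of the DRE, was in 39.5% of divergent promoters against 27.6% of single-gene promoters, beside 13.7% of all autosomal coding promoters. Its order turned for summits 0 to 100 bp upstream, at 49.6% against 51.2%. The full DRE, TATCGATA, which contains CGATA on both strands, was within 50 bp of 111 divergent summits (21.6%, 18.1 to 25.4) and 13.2% of single-gene summits, beside 5.66% of all autosomal coding promoters. The 2 shares were 26.8% and 24.6% for summits 0 to 100 bp upstream. CATCNCTA, a motif of fly core promoters, was in 10.7% (8.16 to 13.7) against 6.94%, beside 2.43% of all promoters. For summits 0 to 100 bp upstream the order turned, at 12.4% against 13.1%. GGTCACAC, part of the site of the factor M1BP, was in 7.004% (4.95 to 9.56) against 5.004%, beside 2.89% of all promoters, and 7.67% against 7.17% for summits 0 to 100 bp upstream. CAGCTG, an E-box, was in 10.3% against 7.55%, beside 7.94% of all promoters, and 10.3% against 10.04% for summits 0 to 100 bp upstream. Of the 169 divergent promoters without CGATA, 14 held GGTCACAC and 9 held CATCNCTA.

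GAGAG, the site of the GAGA factor, was in 7.59% of divergent promoters (5.45 to 10.2) against 13.9% of single-gene promoters (11.9 to 16.0), beside 13.6% of all promoters. For summits 0 to 100 bp upstream it was in 5.90% (3.64 to 8.96) against 9.43% (6.98 to 12.4), and these intervals overlapped. TATAAA was in 8.17% against 6.32%, beside 21.1% of all promoters in the window centred 50 bp upstream of the start. For summits 0 to 100 bp upstream it was in 7.67% against 5.53%. The cause of the difference from all promoters was not tested. CACACACA was in 0.973% against 1.93%, beside 1.28% of all promoters. AAAAAAAA was in 1.95% against 1.76%, beside 4.22% of all promoters. When all 8-letter words were ranked by their excess within 50 bp of the summit over the flanks, 17 of the first 20 contained CGATA. That ranking was made on these regions and describes them only.

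In wide gaps CGATA lay on the side of the summit. There were 209 divergent promoters with a gap over 200 bp and a summit between the starts within 100 bp of the nearer one. In the window centred 50 bp upstream of the nearer start 163 (78.0%) held CGATA, against 83 (39.7%) upstream of the farther start. It was upstream of the nearer start only in 96 of the 209, of the farther start only in 16, of both in 67 and of neither in 30. For the full DRE the counts were 45 with the nearer start only and 20 with the farther start only. Of the 3032 starts in annotated divergent pairs with no summit near either start, 30.4% held CGATA in the same window.

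Signals were higher where CGATA matches were more numerous, at divergent and at single-gene promoters. Both strands were counted, so a full DRE gives 2 matches and the numbers are not numbers of separate sites. Divergent promoters with 0 matches had a median signal of 88.9 (n = 169), those with 1 had 111 (n = 94), those with 2 had 131 (n = 124) and those with 3 or more had 168 (n = 127). The order was the same in each replicate's ranked list, where replicate 1 had medians of 49.5, 65.5, 83.1 and 104.6, and replicate 2 had 40.3, 47.8, 51.7 and 64.6. Single-gene promoters had medians of 88.8, 112, 147 and 179 over the same 4 numbers. Of the 50 strongest divergent promoters 49 held CGATA, and of the 50 weakest 21 did.

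Over all numbers of matches, divergent promoters had a median signal of 115.1 (quartiles 83.4 and 176) and single-gene promoters one of 103 (80.3 and 148), a ratio of 1.12. At 0, 1, 2 and 3 or more matches the ratio was 1.00, 0.985, 0.891 and 0.937. In the replicates' ranked lists these ratios lay between 0.900 and 1.02 in replicate 1 and between 0.826 and 1.03 in replicate 2. The matching overall ratios, over all numbers of matches, were 1.18 in replicate 1 and 1.10 in replicate 2. In the replicates' own thresholded lists, which hold other sets of regions, the overall ratio was 1.15 and 1.06. Among summits 0 to 100 bp upstream of the nearer start the order turned, with medians of 131.5 at divergent promoters and 134.1 at single-gene promoters. The quartile ranges of the classes overlapped throughout. More divergent promoters (48.8%) than single-gene promoters (29.0%) had at least 2 matches, which a full DRE alone gives. No model with both terms was fitted, so the share of the overall difference that goes with the number of matches was not estimated.

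**Figure D5:**
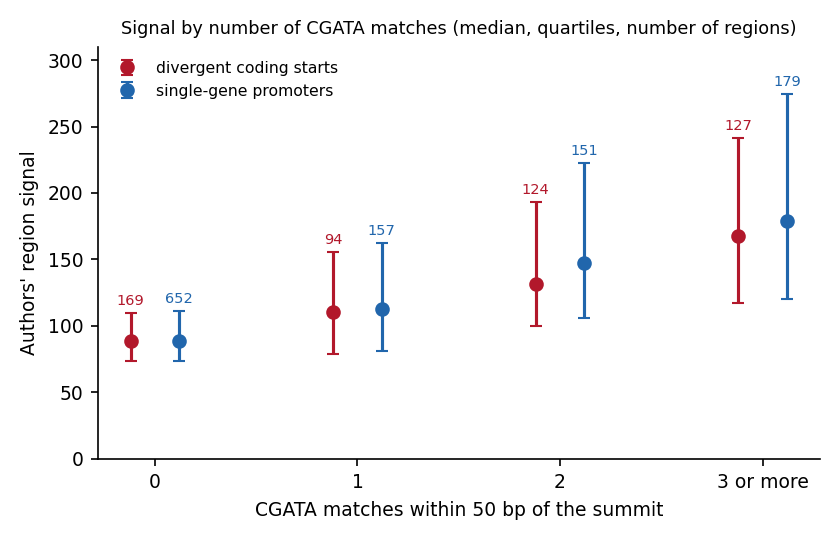
The authors' region signal (y axis) by the number of CGATA matches within 50 bp of the summit (x axis), for divergent and single-gene autosomal promoters. Points are medians, lines run between the quartiles, and numbers give the regions. Medians at divergent promoters go from 88.9 with 0 matches to 168 with 3 or more.

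Of the 985 genes at divergent promoters, 122 were on one of 13 lists of genes of known function, and the others were not classified. Of all autosomal protein-coding genes, 8.38% belonged to a pair described here, and 23.1% of the genes in an annotated divergent pair did. Of 78 cytosolic ribosomal protein genes, taken by symbol and including RpLP0-like and RpL7-like, 18 (23.1%) were at one. The strongest were RpL32, RpL7 (400.8, opposite Ripalpha, 30 bp apart) and RpL41 (308.3, opposite the channel gene NaCP60E). The summit was nearer to the ribosomal protein gene's start in 12 of the 18. Of 62 mitochondrial ribosomal protein genes, 15 (24.2%) were at one, led by mRpL17 (383.4, opposite the nuclease gene Tudor-SN), mRpL53 (276.9, opposite AGO1, an effector of microRNAs) and mRpS17 (128.4, opposite Nop60B). The summit was nearer to the mitochondrial gene in 5 of the 15.

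Of 73 vesicle traffic genes, taken by symbol, 18 (24.7%) were at a divergent promoter, led by Sec61alpha, Rab30 and Rab2 (238.3). Sec61alpha came in by its symbol only, since it encodes the entry channel of the endoplasmic reticulum. Of 42 proteasome genes 9 (21.4%) were, led by Rpn6, Prosalpha7 and Prosbeta1 (278.9). Splicing genes stood at 9 of 25 (36%), led by SmE (414.6, 53 bp from CG34132), SmD3 (358.1) and Sf3a1 (272.2). Aminoacyl-tRNA synthetase genes stood at 6 of 30 (20%), led by GluProRS (195), GlnRS (192.9) and TrpRS (183). General transcription genes stood at 14 of 72 (19.4%), led by MED7 (212.3), Taf7 (156.4) and MED25 (149.2). Each of these shares is above 8.38%. Median signals of these lists, beside 115.1 for all 514 regions, were 114.5 for cytosolic and 106.5 for mitochondrial ribosomal proteins, 206 for vesicle traffic, 147.8 for the proteasome, 88.5 for splicing, 174 for the synthetases and 97.3 for general transcription.

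Oxidative phosphorylation genes stood at 13 of 75 (17.3%), led by ATPsynF (319.3), ATPsynCF6 (206.1) and COX7A (167.5). Translation factor genes stood at 7 of 45 (15.6%), led by eIF3a (374.5), eIF2gamma (357) and eIF4E6 (265.4). Vacuolar ATPase genes stood at 4 of 31 (12.9%), led by Vha68-1 (150), VhaM9.7-b (133.1) and Vha16-5 (126.4). Genes of DNA replication and the cell cycle stood at 4 of 39 (10.3%), close to the background, led by Orc5 (130.5), PolA2 (111.1) and Mcm5 (78.32). Of 23 segmentation and Hox regulators none was at a divergent promoter, and none lies in an annotated divergent pair, although 5 had a summit within 500 bp of a start. Median signals were 107.4 for oxidative phosphorylation, 90.2 for translation factors, 129.7 for the vacuolar ATPase and 94.7 for replication and the cell cycle.

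Insulator protein genes stood at 5 of 14 (35.7%), with a median signal of 125 over genes. Ibf1 and Ibf2 were both counted from the same region, and the list is small. Counting only genes in an annotated divergent pair, of which 23.1% were at one of the 514 regions, the share ran from 19.05% for replication and the cell cycle to 55.6% for the 9 insulator genes, and from 28% to 40.9% for the other lists with such genes. Ibf1 and Ibf2, whose products bind insulators together, face each other 463 bp apart and shared a region of signal 174, with its summit 2 bp inside Ibf2. Cp190, a cofactor of many insulators, had 125.1 opposite CG4338. Chro, which encodes the chromodomain protein Chromator, had 79.69 opposite Ssl1, and pzg had 79.05 opposite CG12974. A further pair of related genes, Taf10b and Taf10, which encode forms of a subunit of the general factor TFIID, faced each other 45 bp apart with a signal of 84.46. In 9 pairs each gene was on one of the lists, among them ATPsynCF6 and Sec13 (206.1) and TrpRS and Vps16A (183).

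Divergent promoters lay on the 4 large autosomal arms, with 151 on 3R, 140 on 2R, 112 on 3L and 111 on 2L. Chromosome 4, which is 1348131 bp long beside 23513712 bp for 2L, had 0. These counts were not set against all regions or genes of each arm, so they show no preference for or absence from any of them.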

How the data were processed

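ChIP-seq of 2 biological replicates was analysed, with chromatin sonicated to 200 to 800 per the labels, which give no unit. The deposited lists give regions with the authors' signal and a summit offset, on dm6 per the labels. No aligner, peak caller or signal scale is named in the sources used here. The signal was used within a list, except where the 2 replicates were set side by side. Whether their scales match is not stated. With no counts in the files, depth is unknown and sets no stated precision. The labels call the replicates biological and list a biosample for each, without saying whether embryos were collected apart.

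Starts came from the Ensembl annotation (release 115) and bases from RefSeq, whose chromosome lengths held every region and start. Where several pairs of starts qualified, the pair with the smallest gap was described, and distances at divergent promoters refer to it. More than 1 gene pair qualified in 31 regions. Regions with several qualifying starts of the same gene pair were not counted. Replicate signals come from the region of that replicate's ranked list that overlaps by at least 1 bp with the nearest summit. Python 3.11.15, pandas 2.3.3 and scipy 1.17.1 were used. The functions were tested on simulated starts, summits and sequences. The members, lists and sequences were chosen with earlier results of these data known. Genes named are both genes of the 10 strongest regions, of the 3 narrowest, 3 widest and 3 farthest outside, of those at the 500 bp limit, and up to 3 of each list by signal. The pairs with 2 regions, the remaining insulator genes, HSPC300, Tnks, Sps1, Taf10 and the pairs of 2 listed genes were named after their values were seen. One pair among the narrowest is not reported here. The sequence between CG11779 and nanos lies within an annotated transcript span and was left out.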

Additional observations from a re-analysis of the deposited data

How the results depend on the processing

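The number of divergent promoters was 310 with regions above the median signal only and 267 with a 250 bp limit, and ranged from 326 to 535 in the lists of single replicates, against 514. It was within 1.5 times of 514 in the pooled list, with a 1000 bp limit, with gene ends only and with the nearest pair. The share of summits between the starts was 64.98% in the pooled list, 79.35% above the median signal, 82.77% with a 250 bp limit, 61.18% with a 1000 bp limit and 74.51% with the nearest pair, and from 64.3% to 76.99% in single replicates, against 70.43%. A shorter limit by its construction removes wide gaps and distant summits. With only the strongest region of each pair it was 71.2%, and without regions of a signal under 20 it was 70.81%. Both were chosen after seeing the data. The ratio of median signals to single-gene promoters was 1.048 with gene ends only, and from 1.061 to 1.149 in single replicates, against 1.12. The cause of the lower value with gene ends was not tested. Without regions of a signal under 20, also chosen after seeing the data, the ratio was 1.111. It was above 1 in each of these alternatives, but among summits 0 to 100 bp upstream of the nearer start the divergent median was the lower, at 131.5 against 134.1. The share of annotated pairs with a summit near both starts was 29.15% in the pooled list, 12.41% with a 250 bp limit and from 14.93% to 23.98% in single replicates, against 23.19%. No paired analysis was possible because the series holds 1 group.

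Of the other results, the share with a full DRE moved beyond its interval in 1 of the alternatives run (above the median signal) and stayed within it in 7. The median gap was 125 bp with a 250 bp limit and 315 bp with a 1000 bp limit, against 260 bp. In the other alternatives it lay between 250.5 and 276.5 bp, with 258 and 261.5 bp in single replicates. The median distance to the nearer start lay between 35 and 43 bp, with 39 and 38 bp in single replicates, against 37 bp. Overlap with each replicate's list stayed within its interval when a larger part of the width had to be shared, and moved for regions above the median signal, to 98.06% and 85.16%. The depth is unknown, so regions missing from replicate 2's list cannot be read as absent there.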

Other observations

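On the X chromosome the same rule found 108 regions at divergent promoters of 349 with a coding start within 500 bp (30.9%, exact 95% interval 26.1 to 36.1). Their gaps had a median of 254.5 bp and the median distance of a summit to its nearer start was 41.5 bp. On X, 83 of the 108 summits (76.9%, 67.8 to 84.4) lay between the starts. CGATA was within 50 bp of 76.9% of divergent summits and 60.2% of single-gene summits there. Median signals on X were 117 at divergent promoters and 114 at single-gene promoters, a ratio of 1.03. Differences between X and the autosomes were not tested.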
